A study of Arabidopsis thaliana with 11 samples.

Results

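The 224 peaks on chromosome 2 were studied out of 1983 peaks in 6 lists from CENH3 chromatin immunoprecipitation sequencing (ChIP-seq) of Arabidopsis thaliana seedlings. All peaks placed on this chromosome were taken, and the positions are those of the genome build TAIR10. ZmCENH3 had 45 peaks in replicate 1 and 45 in replicate 2, LoCENH3 had 26 and 26, and AtCENH3 had 45 and 37. ZmCENH3 is the maize (Z. mays) protein, expressed in the cenh3-1/cenh3-1 mutant. LoCENH3 is the Lepidium oleraceum protein in the same mutant, and AtCENH3 is the plant's own protein in the wild type. All lines are of the Columbia ecotype, and each protein was precipitated with an antibody named for it from nuclei digested with micrococcal nuclease. The nuclei came from whole seedlings kept for 7 to 10 days in liquid MS medium, so the cell types of the seedling cannot be told apart. The labels name neither the promoters of the introduced genes nor the number of independent lines. They list as controls the ZmCENH3 antibody on wild type, the LoCENH3 antibody on the ZmCENH3 line and the AtCENH3 antibody on the LoCENH3 line. The study asked whether centromeres stay in place when the CENH3 protein differs.

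CENH3 replaces histone H3 in centromeric nucleosomes and is the base on which the kinetochore is built, and cenh3-1 is a mutation of the plant's own gene. In Arabidopsis the centromeres are long arrays of a short satellite repeat, of which the TAIR10 assembly holds only a part, surrounded by transposon-rich pericentromeric sequence. Chromosome 2 also carries an array of ribosomal RNA genes at its upper end and a large insertion of mitochondrial DNA near the centromere. No sequence letters were read for the peaks described here, so which of them lie on satellite repeats was not tested.

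The ChIP libraries held from 9016364 to 23205886 tags, and the peak caller scaled each list to the smaller of the ChIP and control totals, which left 9825449 tags for both ZmCENH3 lists, 12730185 for both LoCENH3 lists, and 9016364 and 9239707 for the AtCENH3 lists. The 2 lists of a variant shared 1 control. Each list counts what passed a q-value of 0.05, so signal below that limit is not seen in the lists. The labels do not say whether the 2 replicates of a variant came from separate cultures, so the spread between them may be technical. With 2 libraries against 2, the smallest two-sided p of the exact permutation test is 0.333, and no comparison of variants could reach 0.05.

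Of the peak bases on chromosomes 1 to 5, chromosome 2 held 9.54% and 9.15% in ZmCENH3, 6.77% and 7.32% in LoCENH3 and 13.2% and 13.8% in AtCENH3. The AtCENH3 lists thus had the largest part of their bases here. The LoCENH3 lists also hold a dense block of low peaks on chromosome 4 from 4325454 to 4482371. It was chosen as the longest run of LoCENH3 peaks, joined over 10 kb, with no peak of another variant. Leaving it out can thus only raise the LoCENH3 share, and it leaves the other lists unchanged. Without the block the LoCENH3 values were 16.1% and 12.9%. The difference of LoCENH3 minus AtCENH3 was -6.44 ± 0.59 percentage points (SD, n = 2 each) and became 1.02 without the block and -3.35 with peaks of a −log10 q of at least 10. ZmCENH3 minus AtCENH3 was -4.15 ± 0.52 points, and ZmCENH3 minus LoCENH3 was 2.29 ± 0.47 points and became -5.16 without the block and -0.75 at that q. The exact permutation p was 0.333 in each comparison with the block.

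The peaks fell into 4 parts of the chromosome. They were an end next to the ribosomal DNA (starts below 100000), a main group (starts from 3104727 to 3718116), smaller groups elsewhere below 5 Mb, and sites on the arm beyond. The limits lay in wide gaps. The last start before 100000 was 62858, with a pile-up of 20.9 tags, and the next was 2707534, with 62.0 tags. The pile-up is the number of extended ChIP tags over the summit, as the authors deposited it. At the lower limit of the main group the nearest starts were 2857084 outside (37.9 tags) and 3104727 inside (119 tags). At its upper limit they were 3718116 inside (459.9 tags) and 3948315 outside (53.2 tags). Around 5 Mb they were 4936443 (39.6 tags) and 5578487 (41.0 tags).

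Merging the 6 lists gave 65 regions on chromosome 2: 8 at the ribosomal DNA end, 35 in the main group, 19 in the smaller groups and 3 on the arm. A peak in all 6 libraries was found in 18 of the 65 regions, against 15.4% of the 661 merged regions of chromosomes 1 to 5. On the other chromosomes the share was 14.1%, or 84 of 596 regions. Of the 18 shared regions, 16 were in the main group and 2 in the smaller groups. In 1 stretch of 21.8 kb, described below, lay 14 of the 18. With peaks joined over 1000 bp the count was 6 of 36 regions, and the share of such joined regions over chromosomes 1 to 5 was not counted. At the other extreme, 20 regions had a peak in 1 library: 8 in a ZmCENH3 library (background 14.2%), 5 in a LoCENH3 library (background 12.1%) and 7 in an AtCENH3 library (background 6.66%). The chromosome 4 block was not left out of the LoCENH3 background.

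**Figure D1:**
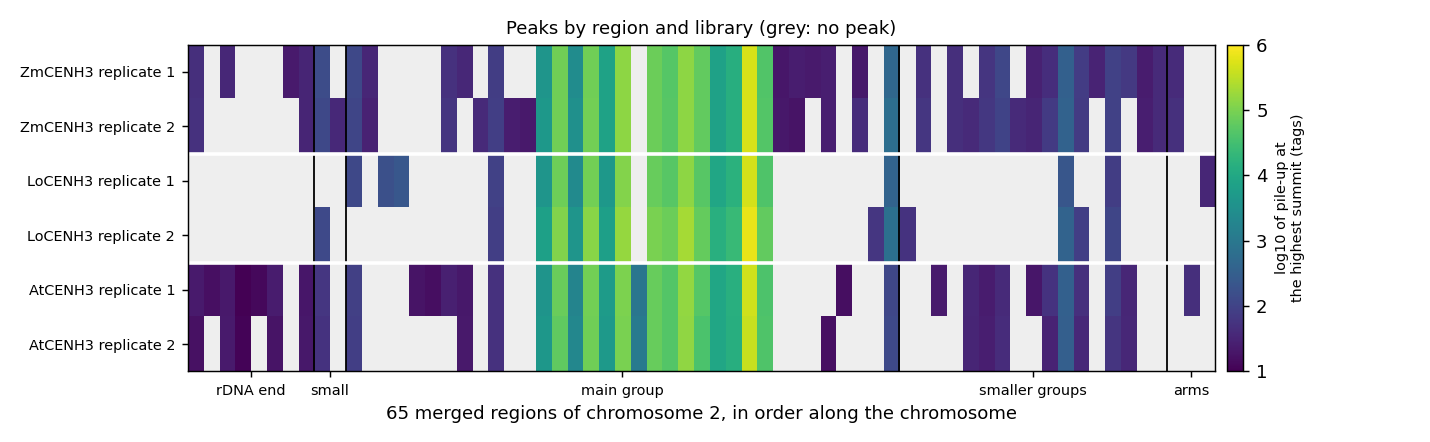
Pile-up at the highest summit of each merged region (columns, 65 regions in chromosomal order) in each library (rows), as log10 of tags, with grey where the library had no peak. The bright block in the main group is shared by the 6 libraries, while the LoCENH3 rows are grey at the ribosomal DNA end and at most of the smaller groups.

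Regions called in both LoCENH3 libraries were all called for the other proteins too, while the 5 regions with a peak in 1 LoCENH3 library alone were not. All 18 regions called in both LoCENH3 libraries were also called in both ZmCENH3 and both AtCENH3 libraries. On chromosomes 1, 3, 4 and 5 the shares were 53.8% of 171 LoCENH3 regions in ZmCENH3 and 49.7% in AtCENH3. Of those 171 regions 77 were called in no other library. The chromosome 4 block, chosen to hold no peak of another variant, was not left out of these shares. In the other direction, 18 of 38 ZmCENH3 regions and 18 of 33 AtCENH3 regions were called in both LoCENH3 libraries (47.4% and 54.5%, against 31.1% and 48.0% on the other chromosomes). Of the 38 ZmCENH3 regions 26 were called in both AtCENH3 libraries, and these made up 26 of the 33 AtCENH3 regions (68.4% and 78.8%, against 55.1% and 92.1% on the other chromosomes). No region was called in both LoCENH3 libraries and in no other library, against 11.6% of regions over chromosomes 1 to 5. For ZmCENH3 this count was 9 (background 14.4%) and for AtCENH3 it was 3 (background 1.82%). The 11.6% takes in the chromosome 4 block, which by its choice can only add regions of LoCENH3 alone. It was not recounted without the block, so the LoCENH3 comparison cannot show a trait particular to chromosome 2. The count for ZmCENH3 was 2 when lists were cut to equal length, and 14 without its replicate 1. For AtCENH3 it was 5 with equal lists, 11 without AtCENH3 replicate 2 and 6 without ZmCENH3 replicate 1. For LoCENH3 it was 2 without its replicate 1 and 3 without its replicate 2. Where a library of the variant itself was left out, a peak in its remaining library sufficed. Those counts follow a looser rule and do not compare with the background shares.

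Regions that LoCENH3 did not share had lower median pile-ups in the other lists, but the classes overlapped. The 18 ZmCENH3 regions shared with both LoCENH3 libraries had a median pile-up of 28588 and 29497 tags in ZmCENH3 replicates 1 and 2, and the 17 regions called in no LoCENH3 library had 39.6 and 43.5 tags. Likewise the 18 shared AtCENH3 regions had medians of 27694.5 and 25597 tags in AtCENH3 replicates 1 and 2, and the 12 called in no LoCENH3 library had 24.0 and 24.7 tags. Of the 18 shared regions 14 lay from 3605679 to 3627482, the dense stretch described below, so the shared medians are those of that stretch. The shared regions outside it had 81.4 to 459.9 tags in ZmCENH3 replicate 1. The unshared regions reached 115 and 102 tags in ZmCENH3, above the lowest shared region (81.4 and 84.0 tags). In AtCENH3 they reached 937 and 1143 tags, above the lowest shared region (52.0 and 52.2 tags).

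Over the whole chromosome ZmCENH3 peaks covered 17.5 and 17.9 kb, LoCENH3 peaks 8.84 and 10.3 kb, and AtCENH3 peaks 17.1 and 15.3 kb. No range overlapped another, and LoCENH3 covered the least. Each variant had its own protein, antibody and control, so their parts in any covered length given here cannot be told apart. The log2 ratio of covered length was 0.89 ± 0.15 for ZmCENH3 over LoCENH3, -0.76 ± 0.19 for LoCENH3 over AtCENH3 and 0.13 ± 0.12 for ZmCENH3 over AtCENH3 (SD, n = 2 each). Each had an exact permutation p of 0.333, or 0.348 after Benjamini-Hochberg adjustment over the 24 tests of this kind. With lists cut to an equal length of 255 peaks, ZmCENH3 over AtCENH3 turned to -0.16, and ZmCENH3 over LoCENH3 was 0.54. ZmCENH3 over AtCENH3 was 0.047 without AtCENH3 replicate 2 and 0.21 without AtCENH3 replicate 1.

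**Figure D2:**
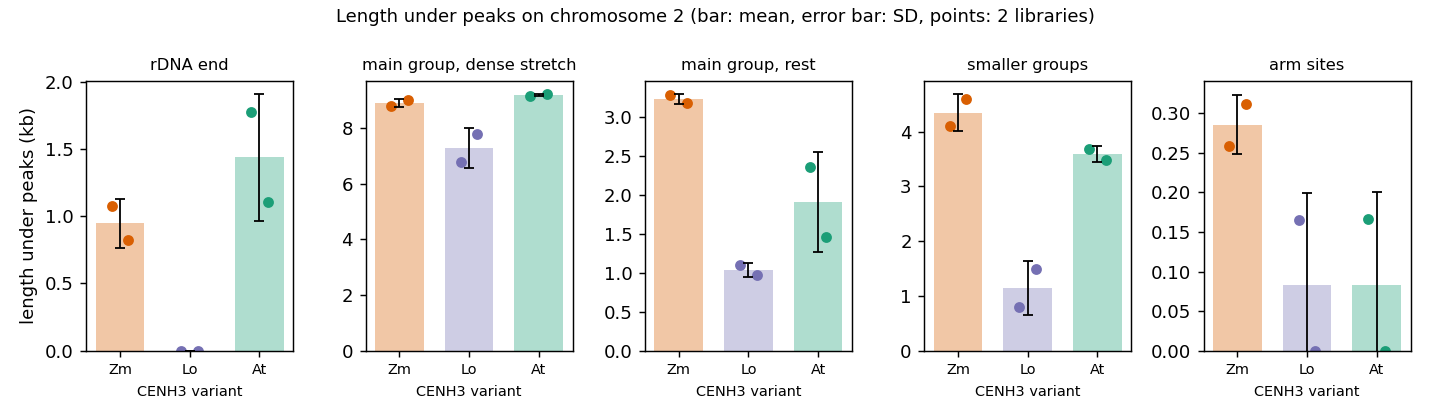
Length under peaks (kb) in each part of chromosome 2 for ZmCENH3 (Zm), LoCENH3 (Lo) and AtCENH3 (At), with the 2 libraries as points, their mean as a bar from 0 and the SD as an error bar. In the dense stretch the means lie between 7.28 and 9.19 kb, while LoCENH3 covers 0 kb at the ribosomal DNA end.

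The main group had 12.1 and 12.2 kb under peaks in ZmCENH3, 7.88 and 8.76 kb in LoCENH3, and 11.5 and 10.7 kb in AtCENH3. The log2 ratio was 0.54 ± 0.11 for ZmCENH3 over LoCENH3, -0.42 ± 0.13 for LoCENH3 over AtCENH3 and 0.13 ± 0.079 for ZmCENH3 over AtCENH3 (SD, n = 2 each, exact permutation p = 0.333 each), and the last turned to -0.089 with lists of equal length. In bins of 1 kb it was 0.44, and LoCENH3 over AtCENH3 was -0.19. Most of these bases lay in a dense stretch of 21.8 kb, from 3605679 to 3627482, found by joining regions over gaps of up to 10 kb. It held 15 regions, of which 14 had a peak in all 6 libraries. ZmCENH3 peaks covered 8.79 and 9.01 kb there, LoCENH3 peaks 6.78 and 7.79 kb, and AtCENH3 peaks 9.16 and 9.22 kb. LoCENH3 covered less than the others in base pairs, while in bins of 1 kb all 3 log2 ratios were 0. The log2 ratio was 0.29 ± 0.14 for ZmCENH3 over LoCENH3, -0.33 ± 0.14 for LoCENH3 over AtCENH3 and -0.046 ± 0.026 for ZmCENH3 over AtCENH3 (SD, n = 2 each, exact permutation p = 0.333 each). This stretch made up 76.7% and 75.9% of the LoCENH3 bases on the chromosome, against 53.4% and 60.4% of the AtCENH3 bases. In ZmCENH3 it made up 50.2% and 50.3%.

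The highest summit of the chromosome was the same base, 3626285, in all 6 libraries. Its pile-up was 496759 and 495491 tags in ZmCENH3, 485647 and 667808 tags in LoCENH3, and 439055 and 381844 tags in AtCENH3. As a share of the scaled tags of each list, this base was covered by 5.06% and 5.04% of tags in ZmCENH3, 3.81% and 5.25% in LoCENH3 and 4.87% and 4.13% in AtCENH3. The LoCENH3 replicates spanned the values of the other 4 libraries. The sources used here do not give the treatment of tags with more than 1 possible position, and all duplicate tags count, so these shares describe the placement of tags in the assembly. The peak around this base started between 3625791 and 3625808 and was 700 and 700 bp long in ZmCENH3, 687 and 690 bp in LoCENH3, and 710 and 710 bp in AtCENH3. It lies in AT2G08986, a gene labelled protein coding.

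Fold enrichment at this base differed more than the pile-up did. It was 33.1 and 33.0 in ZmCENH3, 12.9 and 17.7 in LoCENH3, and 45.0 and 38.2 in AtCENH3. The background implied by these folds was 0.153% of the scaled tags in ZmCENH3, 0.297% in LoCENH3 and 0.108% in AtCENH3, in both lists of each variant. This background is solved from the fold and the pile-up. At like pile-ups the lower folds of LoCENH3 thus correspond to its higher background, which is not a separate observation. Each variant has its own control, so folds of different variants are given side by side and were not tested.

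**Figure D3:**
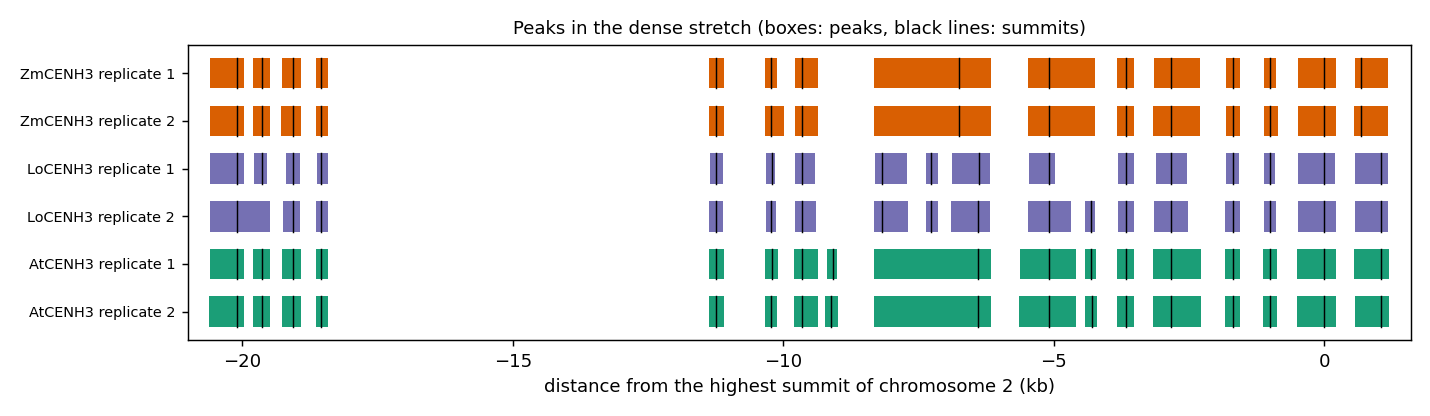
Peaks (boxes) and summits (black lines) of the 6 libraries in the dense stretch, by distance in kb from the highest summit. Most boxes recur in every row, while several differ in length, and the longest ZmCENH3 and AtCENH3 peak, left of -6 kb, is 3 peaks in LoCENH3.

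Most regions of the stretch recurred across the proteins, while outlines and summits differed in several of them. The longest peak of the chromosome in ZmCENH3 and AtCENH3 was at 3617966 to 3620131, in AT2G08986. It was unbroken in ZmCENH3 (2158 and 2161 bp) and AtCENH3 (2165 and 2162 bp), and in LoCENH3 it was 3 peaks in each library that together covered 1535 and 1578 bp. Its highest base was 3619535 and 3619536 in ZmCENH3, 3619903 and 3619894 in LoCENH3, and 3619894 and 3619894 in AtCENH3. Both ZmCENH3 summits thus lay before those of the other 4 libraries. A like displacement was seen at the right edge of the stretch, in the region from 3626845 to 3627482 outside any gene, where the summit was 3626963 and 3626969 in ZmCENH3, 3627341 and 3627331 in LoCENH3, and 3627341 and 3627338 in AtCENH3. These regions were chosen after their values were seen.

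The neighbouring region from 3620646 to 3622085 was 1 peak of 1236 and 1243 bp in ZmCENH3. In LoCENH3 its peaks covered 494 and 992 bp, and in AtCENH3 they covered 1256 and 1272 bp. LoCENH3 had the shortest cover in both libraries. From 3605679 to 3606797, the left end of the stretch, peaks covered 936 and 940 bp in ZmCENH3, 888 and 1108 bp in LoCENH3, and 956 and 965 bp in AtCENH3, so LoCENH3 was on both sides of the others. The region from 3623126 to 3624008 was covered for 848 and 856 bp in ZmCENH3, 579 and 622 bp in LoCENH3, and 883 and 883 bp in AtCENH3.

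A region of the dense stretch was called in AtCENH3 alone. At 3617064 to 3617289, in the gene AT2G07981, AtCENH3 had pile-ups of 937 and 1143 tags with folds of 2.19 and 2.60. These folds were the lowest of both AtCENH3 lists on this chromosome.

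In 14 regions every library had exactly 1 peak, which allowed peak by peak comparison. Both LoCENH3 peaks were shorter than both AtCENH3 peaks in 11 of the 14, against 81.1% of the 74 such regions of chromosomes 1 to 5. The share on chromosome 2 was thus near that of the genome as a whole. The median log2 ratio of length over the 14 regions was -0.15 for LoCENH3 over AtCENH3, against -0.22 over all 74. Both ZmCENH3 peaks were longer than both LoCENH3 peaks in 10 of the 14 (background 81.1%), with a median log2 ratio of 0.11, against 0.24 over all 74. ZmCENH3 peaks were longer than AtCENH3 peaks in 2 of the 14 (background 45.9%) and shorter in 7 (background 28.4%), with a median log2 ratio of -0.019, against 0.017 over all 74. LoCENH3 peaks were longer than AtCENH3 peaks in 1 region (background 4.05%).

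**Figure D4:**
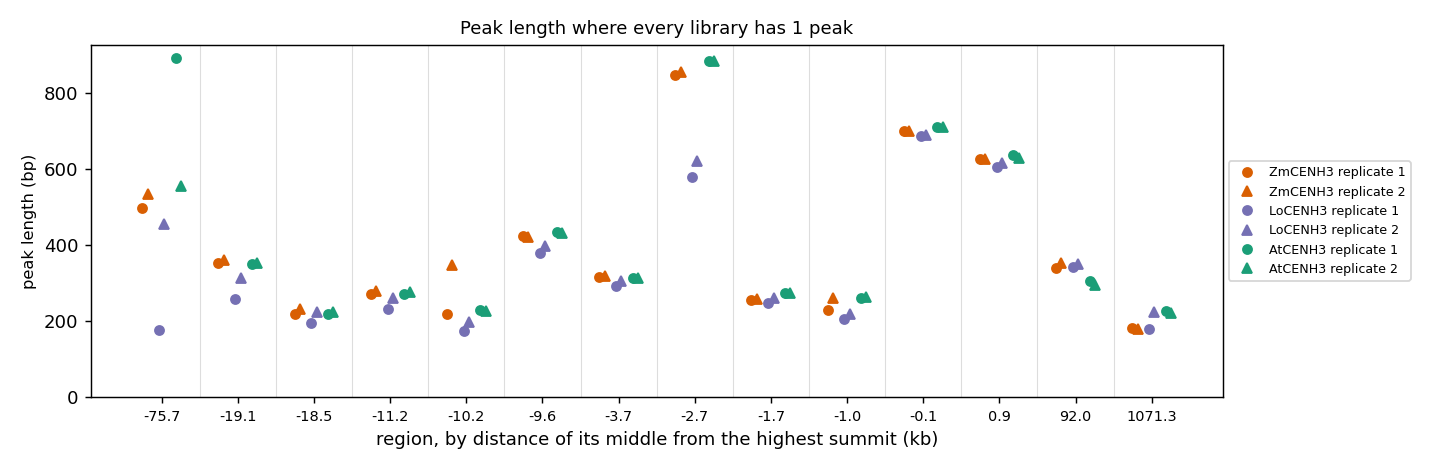
Length in bp of each peak in the 14 regions where every library had exactly 1 peak, in chromosomal order and placed by distance of the region's middle from the highest summit in kb. LoCENH3 peaks lie below AtCENH3 peaks in 11 regions, and above them in the region 92.0 kb to the right.

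That exception was the region from 3718105 to 3718456, at the right limit of the main group. Its peak was 340 and 352 bp long in ZmCENH3, 342 and 351 bp in LoCENH3, and 305 and 296 bp in AtCENH3. The pile-up was 459.9 and 641 tags in ZmCENH3, 397 and 691 tags in LoCENH3, and 117 and 129 tags in AtCENH3. Both introduced proteins thus had longer and higher peaks here than AtCENH3. The folds went the other way, with 2.41 and 3.38 in ZmCENH3, 2.15 and 3.78 in LoCENH3, and 4.83 and 5.22 in AtCENH3, and the implied background at the summit was 190.0 and 189 tags in the ZmCENH3 lists, 184 and 182 tags in the LoCENH3 lists, and 23.4 and 24.0 tags in the AtCENH3 lists. This background is solved from the pile-up and the fold, and it was higher in the lists of both introduced proteins. Its part in the result was not tested.

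In 3 of the 14 regions all 6 summits were the same base, and in 8 they lay within 5 bp, while the widest range was 378 bp. Edges varied more. No region had all 6 starts within 5 bp and 1 had all ends within 5 bp, with median ranges of 21 bp for starts and 29.5 bp for ends and the widest at 692 and 260 bp. These counts were not made over the 74 such regions of chromosomes 1 to 5, so they show no trait particular to chromosome 2. Over all overlapping peaks of chromosome 2 the median summit distance was 8 bp between the ZmCENH3 replicates, 1.5 bp between the LoCENH3 replicates and 4 bp between the AtCENH3 replicates. Between variants it ran from 1 to 8 bp over 12 pairs of libraries. The mean was 4.17 bp between variants and 4.5 bp within them, a difference of -0.33 bp (exact permutation over 15 pairings, one-sided p = 0.8). The difference turned to 1 bp with equal lists and with peaks of a −log10 q of at least 10 (for the second, exact permutation p = 0.0667, the smallest that 15 pairings can give) and to 1.25 and 0.88 bp without ZmCENH3 replicate 1 or 2.

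**Figure D5:**
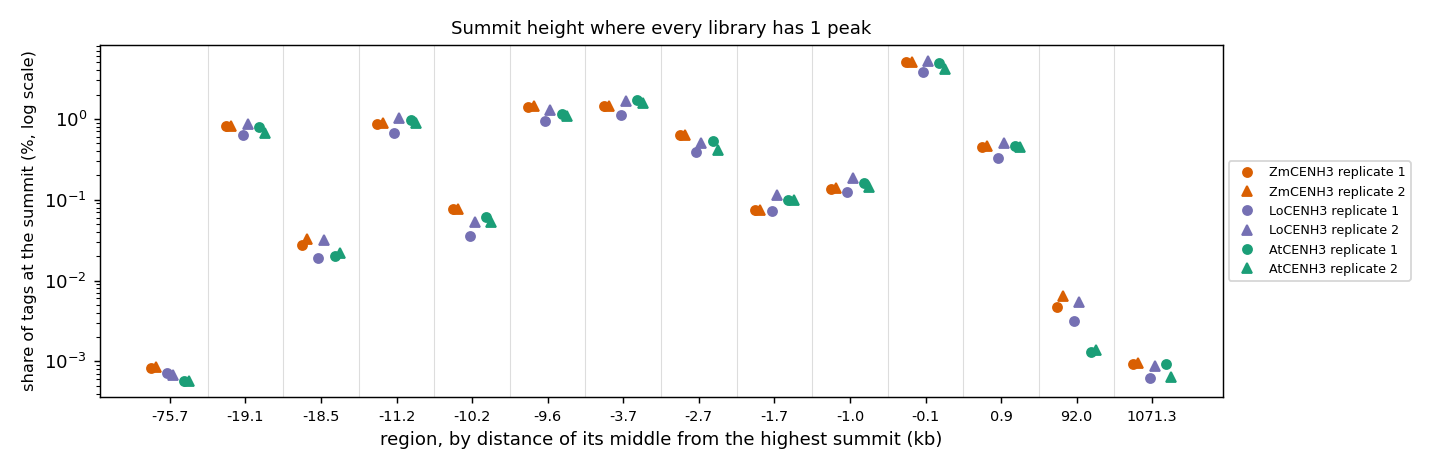
Pile-up at the summit as a percent of the scaled tags of each library (log scale) in the 14 regions with exactly 1 peak per library, in chromosomal order and placed by distance of the region's middle from the highest summit in kb. Values span from below 0.001% to 5.25%, and the libraries rank the regions in nearly the same order.

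The order of summit heights was nearly the same in all 6 libraries. Across these 14 regions Spearman's rho of the pile-up was between 0.987 and 1 over the 15 pairs of libraries. In ZmCENH3 replicate 1 the implied background was also highest at the highest summit, at 0.153% of the scaled tags. It was lowest at the lowest summit, that of the region from 3550093 to 3550984, at 8.41e-05%. The part of the background in this order was not tested. The regions are not independent points, since they share libraries and may share sequence. Outside the dense stretch the share of tags was far lower. At 4697456 to 4697711 the pile-up was 91.3 and 94.5 tags in ZmCENH3, 79.8 and 113 tags in LoCENH3, and 83.0 and 59.8 tags in AtCENH3.

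The bases shared by libraries were also compared over the whole chromosome. The Jaccard index divides the bases common to a pair of lists by those covered in at least 1 of them. It was 0.782 for the ZmCENH3 replicates, 0.725 for LoCENH3 and 0.786 for AtCENH3. Between ZmCENH3 and AtCENH3 libraries it was 0.586 to 0.655, between LoCENH3 and AtCENH3 libraries 0.463 to 0.611, and between ZmCENH3 and LoCENH3 libraries 0.442 to 0.533. Over the whole chromosome each replicate pair thus had a higher index than any pair from different variants. The 2 lists of a variant also shared 1 control, while lists of different variants had different controls. The parts of protein and control in this cannot be told apart. Averaged, the index was 0.764 within variants and 0.546 between them, a difference of 0.218 (exact permutation over 15 pairings, one-sided p = 0.0667, the smallest possible). Within the main group alone the excess was 0.138, and there the LoCENH3 replicates had an index of 0.777, below the 0.783 of ZmCENH3 replicate 1 with AtCENH3 replicate 2.

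Outside the dense stretch the main group differed more between the proteins. ZmCENH3 peaks covered 3.28 and 3.18 kb there, LoCENH3 peaks 1.10 and 0.972 kb, and AtCENH3 peaks 2.36 and 1.45 kb. The ranges did not overlap, with ZmCENH3 highest and LoCENH3 lowest. The log2 ratio was 1.64 ± 0.13 for ZmCENH3 over LoCENH3, -0.88 ± 0.51 for LoCENH3 over AtCENH3 and 0.76 ± 0.50 for ZmCENH3 over AtCENH3 (SD, n = 2 each, exact permutation p = 0.333 each). With lists of equal length the last turned to -0.35 and ZmCENH3 over LoCENH3 was 0.50. With peaks of a −log10 q of at least 10 the ratios were 0.77, -0.40 and 0.37 in the same order. Without AtCENH3 replicate 1 LoCENH3 over AtCENH3 was -0.49 and ZmCENH3 over AtCENH3 was 1.15, and without AtCENH3 replicate 2 they were -1.19 and 0.45.

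To the left of the dense stretch, from 3545715 to 3550984, lay 6 regions in and beside the pseudogene AT2G07789. The region from 3550093 to 3550984 was called in all libraries, with pile-ups of 81.4 and 84.0 tags in ZmCENH3, 91.1 and 85.6 tags in LoCENH3, and 52.0 and 52.2 tags in AtCENH3. The other 5 regions of this stretch had no LoCENH3 peak. At 3104727 to 3104942, the left limit of the main group, all libraries but LoCENH3 replicate 2 had a peak, with pile-ups of 119 and 111 tags in ZmCENH3, 119 tags in LoCENH3 replicate 1, and 90.0 and 82.8 tags in AtCENH3.

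To the right, from 3649946 to 3664335, the peaks were mostly those of ZmCENH3. ZmCENH3 peaks covered 1657 and 1204 bp, LoCENH3 peaks 0 and 166 bp, and AtCENH3 peaks 268 and 237 bp. Of the 7 regions here, 3 were called in both ZmCENH3 libraries alone. The longest of these was at 3652754 to 3653322, with pile-ups of 25.5 and 18.0 tags, and the next was at 3662723 to 3663221, with 21.2 and 43.5 tags. The lowest pile-ups of both ZmCENH3 lists on the chromosome, 19.8 and 18.0 tags, lay in this stretch. None of the 7 regions overlapped a gene of the table used. A further region of ZmCENH3 alone in the main group, at 3227387 to 3227640 in the pseudogene AT2G07660, had 34.0 and 29.9 tags.

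Over the main group as a whole, mean peak length was 464 and 451 bp in ZmCENH3, 358 and 438 bp in LoCENH3, and 461 and 485 bp in AtCENH3. LoCENH3 over AtCENH3 was -0.25 ± 0.21 and ZmCENH3 over LoCENH3 was 0.20 ± 0.21 on the log2 scale (SD, n = 2 each, exact permutation p = 0.333), and ZmCENH3 over LoCENH3 turned to -0.60 with peaks joined over 1000 bp. Without LoCENH3 replicate 1 these were -0.11 and 0.063, and without LoCENH3 replicate 2 they were -0.40 and 0.35. ZmCENH3 over AtCENH3 was -0.047 ± 0.059 (exact permutation p = 0.667), with overlapping ranges. It turned to 0.12 with lists of equal length and was -0.83 with peaks joined over 1000 bp.

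At the ribosomal DNA end all 8 regions lacked LoCENH3 peaks. Over chromosome 2, 17 of 38 regions called in both ZmCENH3 libraries and 12 of 33 called in both AtCENH3 libraries lacked them. On chromosomes 1, 3, 4 and 5, 143 of 296 such ZmCENH3 regions and 127 of 177 such AtCENH3 regions had a LoCENH3 peak. At the ribosomal DNA end ZmCENH3 peaks covered 1072 and 819 bp, LoCENH3 peaks 0 and 0 bp, and AtCENH3 peaks 1771 and 1104 bp. The ranges did not overlap. The difference was -1437.5 ± 472 bp for LoCENH3 minus AtCENH3, 945.5 ± 179 bp for ZmCENH3 minus LoCENH3 and -492 ± 504 bp for ZmCENH3 minus AtCENH3 (SD, n = 2 each, exact permutation p = 0.333 each). With peaks of a −log10 q of at least 10 the last turned to 348 bp, LoCENH3 minus AtCENH3 shrank to -222.5 bp (exact permutation p = 1) and ZmCENH3 minus LoCENH3 was 570.5 bp. ZmCENH3 minus AtCENH3 was -158.5 bp without AtCENH3 replicate 1 and -825.5 bp without AtCENH3 replicate 2. Pile-ups were low, from 23.4 to 51.6 tags in ZmCENH3 and from 10.0 to 24.0 tags in AtCENH3. The lowest peaks of the LoCENH3 lists anywhere on chromosome 2 had 34.5 and 53.2 tags, in lists scaled to more tags. The part of this calling limit in the lack of LoCENH3 peaks was not tested.

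At this end 2 regions were called in all ZmCENH3 and AtCENH3 libraries. At 19165 to 19596, in the pseudogene AT2G01026, the pile-up was 46.7 and 51.6 tags in ZmCENH3, against 23.0 and 16.7 tags in AtCENH3. At 62689 to 63075, in the pseudogene AT2G01037, it was 32.6 and 33.6 tags in ZmCENH3, against 20.0 and 20.9 tags in AtCENH3. The ZmCENH3 pile-up was the higher in both. At the second region the folds went the other way, with 3.05 and 3.14 in ZmCENH3, against 6.45 and 6.61 in AtCENH3, and the implied background was 10.0 and 10.0 tags in the ZmCENH3 lists, against 2.25 and 2.31 tags in the AtCENH3 lists. Its part in the pile-ups was not tested. The region from 27218 to 27545 lies between genes and had 35.4 tags in ZmCENH3 replicate 1, against 22 and 23.0 tags in AtCENH3.

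AtCENH3 alone was called at 28553 to 28813 in the pseudogene AT2G01029, with 10.0 and 11.1 tags, and at 58805 to 59052 in AT2G01037, with 24.0 and 18.1 tags. The remaining regions of this end had a peak in 1 library, at 19830 to 19994 (16.0 tags) and 45823 to 46152 (13.0 tags) in AtCENH3 replicate 1 and at 62099 to 62269 (23.4 tags) in ZmCENH3 replicate 1. The ribosomal RNA genes AT2G01010 and AT2G01020 themselves had no peak in any library, so the peaks lay beside the annotated ribosomal genes and not on them. Of 11 genes listed for this end, 2 had a peak, AT2G01026 and AT2G01029, where 19 of the 6312 genes of chromosome 2 and 0.401% of all genes had one in any library.

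In the smaller groups ZmCENH3 peaks covered 4.10 and 4.59 kb, LoCENH3 peaks 0.799 and 1.495 kb, and AtCENH3 peaks 3.69 and 3.49 kb. LoCENH3 covered the least, and the ranges did not overlap. The difference was -2439 ± 512 bp for LoCENH3 minus AtCENH3, 3197.5 ± 599.9 bp for ZmCENH3 minus LoCENH3 and 758.5 ± 371 bp for ZmCENH3 minus AtCENH3 (SD, n = 2 each, exact permutation p = 0.333 each). The last turned to -421.5 bp with lists of equal length, where ZmCENH3 minus LoCENH3 was 1838 bp. With peaks of a −log10 q of at least 10 these were 246 and 2085 bp.

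Most of these bases lay between 3948315 and 3966275, where 11 regions lie in or near the pseudogenes AT2G10280, AT2G10285, AT2G10290 and AT2G10310. At 3965355 to 3966275, between genes, all libraries had peaks, which covered 804 and 796 bp in ZmCENH3, 618 and 602 bp in LoCENH3, and 911 and 754 bp in AtCENH3. The highest pile-up was 343 and 379 tags in ZmCENH3, 219 and 388 tags in LoCENH3, and 348 and 326 tags in AtCENH3. It was the highest region of the smaller groups in all 6 libraries, and the libraries overlapped in height. Its fold was 34.2 and 37.7 in ZmCENH3, 2.896 and 5.12 in LoCENH3, and 32.4 and 29.7 in AtCENH3, and the implied background was 9.08 and 9.08 tags in the ZmCENH3 lists, 75.0 and 75.0 tags in the LoCENH3 lists, and 9.76 and 10.0 tags in the AtCENH3 lists.

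At 4187657 to 4188335, between genes, the AtCENH3 peaks were longer than the others. The length was 395 and 356 bp in ZmCENH3, 335 bp in LoCENH3 replicate 2 with no peak in replicate 1, and 679 and 655 bp in AtCENH3. At 3951229 to 3952000, in AT2G10280, peaks covered 224 bp in ZmCENH3 replicate 2, none in LoCENH3, and 433 and 697 bp in AtCENH3. ZmCENH3 alone was called in both replicates at 4936243 to 4936736, with pile-ups of 39.6 and 39.2 tags, and at 3950744 to 3951080, with 48.1 and 47.9 tags. The first of these touches the pseudogene AT2G12320 in replicate 2 and the second lies in AT2G10280.

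On the arm beyond 5 Mb 3 regions were found. ZmCENH3 had a peak in both replicates at 5578487 to 5578828, between genes, with pile-ups of 41.0 and 49.75 tags and folds of 3.503 and 3.63. LoCENH3 replicate 1 had 1 peak at 16306434 to 16306598, with 34.5 tags and a fold of 3.90. It overlaps SWEET9 (AT2G39060), which encodes a sucrose transporter of nectaries. AtCENH3 replicate 1 had 1 peak at 13106834 to 13106999, with 48.0 tags and a fold of 2.95, in AT2G30760. Both were absent from the other replicate of their variant.

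Of the 6312 genes of chromosome 2 in the gene table, 11 were overlapped by peaks of both libraries of some variant, against 0.296% of all 37899 genes: 9 in ZmCENH3, 3 in LoCENH3 and 8 in AtCENH3. Of the 11, 9 are labelled pseudogenes and 2, AT2G08986 and AT2G07981, protein coding. The 3 genes of LoCENH3 were AT2G08986, AT2G07981 and AT2G07789, which had a peak in all 6 libraries (background 0.0528%). In AT2G08986, the gene of the highest summit, peaks covered 5617 and 5669 bp in ZmCENH3, 3933 and 4546 bp in LoCENH3, and 5730 and 5751 bp in AtCENH3. In AT2G07981 they covered 846 and 974 bp in ZmCENH3, 739 and 789 bp in LoCENH3, and 1062 and 1091 bp in AtCENH3. LoCENH3 covered the least of both genes. In AT2G07789 peaks covered 678 and 688 bp in ZmCENH3, 70.0 and 371 bp in LoCENH3, and 1030 and 608 bp in AtCENH3. In AT2G10280 they covered 492 and 738 bp in ZmCENH3, 0 and 166 bp in LoCENH3, and 602 and 697 bp in AtCENH3, and again LoCENH3 had the lowest values.

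Among the rest, AT2G01037 and AT2G01026 had peaks in both replicates of ZmCENH3 and AtCENH3, as did AT2G10280. AT2G11720 and AT2G01029 had them in AtCENH3, and AT2G12210, AT2G07660 and AT2G10290 in ZmCENH3. Of the 65 regions 38 overlapped a gene and 27 lay between genes. Several regions lay in the same gene, and the share over the merged regions of all chromosomes was not counted. The 5 listed genes of the spindle checkpoint, Aurora kinases and histone methylation on this chromosome, BUBR1, AUR2, AUR3, SUVH2 and SUVH5, had no peak in any library.

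A list of 153 genes for the mitochondrial insertion, set by locus number, held 2 with a peak in any library, beside the 0.401% of all genes. They were AT2G07789 and AT2G07770, a pseudogene with a peak in ZmCENH3 replicate 2. Locus numbers do not run in chromosomal order here, so the list only approximates the insertion. LoCENH3 replicate 1 had peaks at 3378057 to 3378275, overlapping AT2G07638, and at 3440326 to 3440520, in AT2G07652, with pile-ups of 169.8 and 224 tags and folds of 1.61 and 2.01, the lowest of that list on the chromosome. No other library had a peak at either place.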

How the data were processed

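The 6 peak lists were analysed, 2 for each CENH3 variant, grouped by title; the 3 antibody controls and 2 input samples were not analysed here. The submitters' processing notes name BWA, MACS2 and the build TAIR10. Per the file headers, peaks were called per library with MACS 2.1.0.20140616, without a model, with tags extended to 165 bp, all duplicates kept, the larger library scaled to the smaller, an effective genome size of 2.7 Gb, far above that of this genome, and a q-value cutoff of 0.05. The pile-up signal, the −log10 p-value and −log10 q-value, and the fold enrichment ratio are the authors' deposited values; starts, ends, lengths and summits (1-based, as deposited) are unchanged. The background was solved from the fold as (pile-up + 1) / (background + 1), this caller's usual definition, and is the largest of its local estimates.

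Peaks of the 6 lists on chromosomes 1 to 5 that overlapped were merged into regions. Lengths were compared by exact two-sided permutation of libraries with Benjamini-Hochberg adjustment, and overlap and summit distance over the 15 ways to pair 6 libraries. Python 3.11.15, numpy 2.4.6, pandas 2.3.3 and matplotlib 3.10.9 were used, and interval functions were tested on simulated data. Gene names came from a RefSeq table of TAIR10.1, whose nuclear numbering was taken as that of TAIR10; its coordinates are not printed. Named regions were all those at the ribosomal DNA end and on the arm, the 5 and 3 with the most bases in the main and smaller groups, up to 5 longest per variant found in it alone, and the highest peak per library; named genes were those overlapped in both libraries of a variant or in a listed set with a peak. Other regions were named after their values were seen. The members, limits and lists were chosen with earlier results of these data known. Alternatives were a −log10 q of at least 10, lists cut to 1 length, omission of each library, 1 kb bins, wider limits, joining over 1000 bp, 50% overlap or coverage, and a block for the replicate number. The dense stretch, its remainder and the omission of the chromosome 4 block were added after seeing the data.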

Additional observations from a re-analysis of the deposited data

Results flagged for a closer look

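Peaks outside chromosomes 1 to 5, which no comparison used, were present in LoCENH3 replicate 1 and in no other library. It had 1 peak on the mitochondrial sequence, with a pile-up of 213 tags at the summit, a fold enrichment of 1.48 and an implied background of 143 tags. It had 1 peak on the chloroplast sequence, with a pile-up of 3086 tags, a fold of 1.17 and an implied background of 2638 tags. Beside them stand the peaks of the same library overlapping AT2G07638 and AT2G07652 on chromosome 2, with folds of 1.61 and 2.01. Whether these peaks are related was not tested.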

How the results depend on the processing

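Of 217 alternative values for the 26 tested results, 199 had the direction reported, 15 had the other and 3 were 0, those of the dense stretch in bins of 1 kb. Leaving out 1 library turned no covered length or share, but moved ZmCENH3 minus AtCENH3 at the ribosomal DNA end between -825.5 and -158.5 bp. With lists of equal length, ZmCENH3 over AtCENH3 was -0.16 (log2) for the whole chromosome, -0.089 for the main group, -0.35 for the main group outside the dense stretch and 0.12 for main group peak length, and -421.5 bp for the smaller groups. With a −log10 q of at least 10 it was 348 bp at the ribosomal DNA end and 0.010 (log2) for peak length, and ZmCENH3 minus LoCENH3 was -0.75 points for the share of peak bases. Without the chromosome 4 block that share gave -5.16 points for ZmCENH3 minus LoCENH3 and 1.02 for LoCENH3 minus AtCENH3. By the choice of the block, its omission could only raise the LoCENH3 share. Joining peaks over 1000 bp gave -0.60 (log2) for ZmCENH3 over LoCENH3 peak length. The summit distance between minus within variants was 1 bp with a −log10 q of at least 10, 1 bp with equal lists, and -1.38 to 1.25 bp leaving out 1 library. The cause was not tested. Regions in all 6 libraries numbered 6 when joined over 1000 bp, of 36. ZmCENH3 alone had 5 regions with a −log10 q of at least 10, 2 with equal lists and 9 to 14 leaving out a library. LoCENH3 alone had 0 to 3 leaving out a library. AtCENH3 alone had 5 with equal lists and 3 to 11 leaving out a library. Where a library of the variant itself was left out, a peak in its remaining library sufficed, which is a looser rule.

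With the replicate number as a block, the log2 ratio for the whole chromosome was 0.13 for ZmCENH3 over AtCENH3, -0.76 for LoCENH3 over AtCENH3 and 0.89 for ZmCENH3 over LoCENH3 (exact sign-flip permutation p = 0.5, the smallest 2 pairs allow), and no direction turned. The titles number the replicates without saying that equal numbers belong together. Differences between replicates correlated at -0.071 to 0.015 between variants over the 65 regions. This cannot decide whether the numbers pair the samples, since it rests on called peaks only. Lists hold only called peaks and depth differs between them, so absence of a peak is not absence of signal.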
